A study of Mus musculus with 4 samples.

Results

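The 10 genes described here, Jchain, Mzb1, Xbp1, Sdc1, Prdm1, Derl3, Creld2, Txndc5, Fkbp11 and Eaf2, belong to the secretory program of the plasma cell. They were taken by gene symbol, and all 10 were found among the 32285 genes counted. The data are single-cell RNA counts from leukocytes of mouse tumors, in 4 libraries of 1 per group. C57BL/6NHsd male mice carried subcutaneous tumors of the syngeneic KPC line, a mouse pancreatic cancer line. Mice of the Untreated group received neither drug. The STING agonist group received ADU-S100, a cyclic dinucleotide that activates the innate sensor STING, injected into the tumor. The LTbR agonist group received the activating antibody 4H8 against the lymphotoxin-beta receptor (LTbR) by the intraperitoneal route. The STING and LTbR agonist group, called the combination below, received both. The study's methods pooled the tumors of a group before dissociation, and live CD45+ cells were sorted, so leukocytes with little surface CD45 were not sampled. With 1 library per group there was no replicate spread, so no test of a treatment was possible, and all 3 treatments are set against the same Untreated library. Differences are given with exact Poisson or binomial 95% intervals, which cover counting error only.

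A plasma cell is the end stage of the B cell lineage and secretes antibody. Its endoplasmic reticulum is enlarged to fold, glycosylate and export immunoglobulin, and the load is met by the unfolded protein response, in which the sensor IRE1 splices Xbp1 mRNA and ATF6 is released by cleavage. Blimp-1, the product of Prdm1, represses genes of the B cell identity. The J chain, product of Jchain, joins the units of polymeric IgM and IgA.

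Counts are of UMIs, each of which marks 1 captured RNA molecule. Barcodes with fewer than 300 or more than 5000 genes, or with over 6% of UMIs from mitochondrial genes, were left out, and 23011 of 24839 were kept as cells. The Untreated, STING agonist, LTbR agonist and combination libraries held 6783, 3748, 7147 and 5333 cells, with median depths of 7094, 6748, 5750 and 5877 UMIs. Between 29751027 and 53910673 UMIs were summed per library. Of 22765 barcode sequences in these cells, 246 occurred in more than 1 library (1.08%). Cells were clustered and the clusters named "X-like" from marker genes, which include no member. A plasma-like group of 34 cells (4, 0, 8 and 22 in the order of libraries above) was a sub-cluster of the B cell cluster, and another 757 cells were B-like. Jchain, Mzb1 and Sdc1 were among the variable genes of the first clustering. The sub-clustering chose its own variable genes with the members left in, so any member may have shaped the split into plasma-like and B-like cells. The level of every member in plasma-like cells against other cells is therefore a description.

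A second definition used no member. Cells with at least 10% of their UMIs from heavy-chain, kappa or lambda genes, called immunoglobulin-rich, numbered 23 of 23011. There were 3 in the Untreated library, 0 under the STING agonist, 7 under the LTbR agonist and 13 under the combination. Their share of all cells was 0.0442% in the Untreated library (exact binomial 95% interval 0.00912 to 0.129%), 0.0979% under the LTbR agonist (0.0394 to 0.202%) and 0.244% under the combination (0.13 to 0.417%). At this limit the combination and Untreated intervals were barely apart (0.1299% against 0.1292%). They were apart at a limit of 5% immunoglobulin (0.172 to 0.487% against 0.00912 to 0.129%). They overlapped at a limit of 20% (0.103 to 0.369% against 0.00912 to 0.129%) and over all barcodes (0.131 to 0.4% against 0.0152 to 0.142%). They also overlapped without Scrublet scores of 0.2 or more. The outcome depended on the setting, so no difference in share is read from them, and the shares are not taken as equal. The LTbR agonist interval overlapped those of the Untreated and combination libraries. In the STING agonist library, 0 of 3748 cells allows a share of up to 0.0984% by the exact binomial interval, or 0.0800% by a limit of 3 counts. A difference from the Untreated share was therefore not detectable at this depth. Of the 23 cells, 22 fell in the plasma-like group and 1, in the LTbR agonist library, in the macrophage- or monocyte-like class. None had a Scrublet doublet score of 0.2 or more. All 7 neutrophil and all 6 mast cell markers were at 0 in the 23 cells, as were 3 of 9 T cell and 4 of 7 NK cell markers. Macrophage markers summed to 1200 CPM (UMIs of a gene scaled to the same total in each group of cells), with Adgre1 at 0. Of 14 plasma cell markers outside the member list, 5 were immunoglobulin genes that the definition itself used. Of the 14, 11 had a UMI in at least 10% of the 23 cells, against 8 in B-like and 8 in plasmacytoid dendritic-like cells. Of 10 B cell markers, 7 had a UMI in at least 10% of the 23 cells and Cd22 was at 0. The B cell markers summed to 1297 CPM there and 8440 CPM in B-like cells. The other 12 plasma-like cells (1, 0, 2 and 9) held between 0 and 9 members, and cycling genes summed to 1093 CPM over the plasma-like group against 16.5 CPM in B-like cells.

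Derl3 and Creld2 were the members whose promoter held the endoplasmic reticulum stress element, at which ATF6 and XBP1 act together with NF-Y, and their upstream sequences are shown for that reason. The element was searched as CCAAT, 9 free bases and CCACG on both strands of RefSeq windows (GRCm38.p6) of the 250 bases before gene starts. It was present in 0.119% of 32851 windows, and in 2 of the 9 members that have a window. The sequences below are those 250 bases, 5′ to 3′ on the + strand, at chr10:75893148-75893397 for Derl3 and chr15:88819396-88819645 for Creld2, with the element in capitals.

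Derl3: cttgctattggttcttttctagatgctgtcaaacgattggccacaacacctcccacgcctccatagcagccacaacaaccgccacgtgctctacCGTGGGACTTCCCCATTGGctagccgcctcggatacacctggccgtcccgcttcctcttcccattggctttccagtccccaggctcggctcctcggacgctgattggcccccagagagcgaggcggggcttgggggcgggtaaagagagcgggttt

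Creld2: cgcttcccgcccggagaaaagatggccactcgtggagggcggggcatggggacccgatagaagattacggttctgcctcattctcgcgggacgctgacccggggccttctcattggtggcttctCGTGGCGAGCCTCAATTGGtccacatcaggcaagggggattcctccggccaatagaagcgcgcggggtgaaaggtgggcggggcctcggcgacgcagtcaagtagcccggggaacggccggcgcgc

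The element, read here on its complementary strand, began 156 bases before the start in Derl3 and 126 bases before it in Creld2. The shorter core ACGTG was found in 19.6% of all windows and in those of Derl3, Eaf2, Fkbp11, Jchain and Txndc5. A match is a description of the sequence and not of binding.

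Jchain (chr5:88519809-88527891, GRCm38) was the member most concentrated in few cells: over the 4 libraries, 4 cells held at least 50% of its UMIs. It had 1348 UMIs in the Untreated library, 1 under the STING agonist, 2838 under the LTbR agonist and 6045 under the combination. In CPM of the library these were 25.0, 0.0336, 56.4 and 157.7. A single cell held 73.6% of the Untreated UMIs and a single cell 59.5% of those under the LTbR agonist, while the top 3 cells held 58.2% under the combination. Of all 10232 Jchain UMIs, 93.4% lay in the 23 immunoglobulin-rich cells. Relative to the Untreated library, the log2 ratio of CPM + 10 was 2.26 under the combination (2.17 to 2.35) and 0.92 under the LTbR agonist (0.82 to 1.02). The STING agonist count of 1 corresponded to 0.00134 of the Untreated level (3.4e-05 to 0.0075). Outside immunoglobulin-rich cells 87, 1, 146 and 439 UMIs were left, or 1.62, 0.0336, 2.91 and 11.5 CPM. Their log2 ratio was 0.89 for the combination (0.77 to 1.00) and 0.15 for the LTbR agonist, on a scale whose added 10 CPM understates the change of a gene this low.

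**Figure D1:**
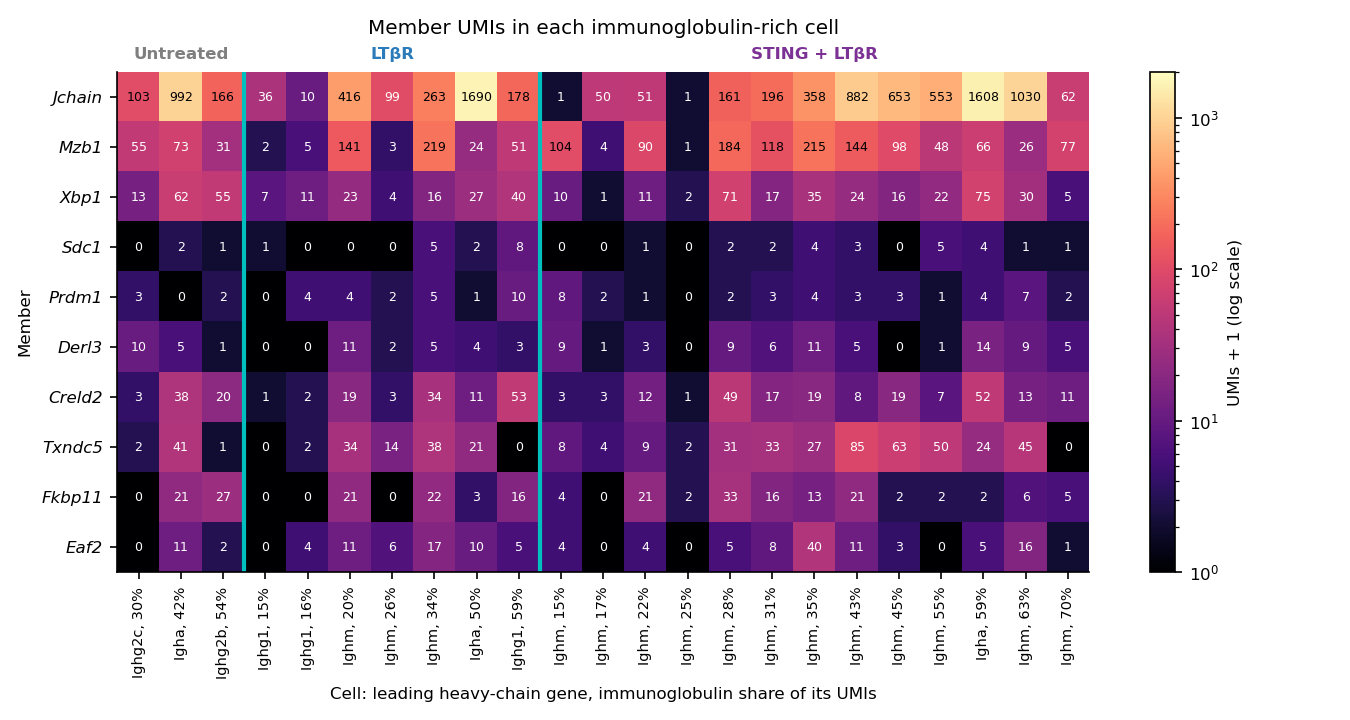
UMIs of each member (rows) in each of the 23 immunoglobulin-rich cells (columns), in blocks for the Untreated, LTbR agonist and combination libraries, with the leading heavy-chain gene and the immunoglobulin share of UMIs under each column. Jchain and Mzb1 hold most UMIs, Jchain runs from 1 to 1690, and Sdc1 and Prdm1 stay at 10 or fewer in each cell.

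Cell by cell, the 23 immunoglobulin-rich cells differed widely. Jchain ran from 1 to 1690 UMIs with a median of 178, at total depths of 2333 to 57765 UMIs. The 3 cells led by Igha held 992, 1690 and 1608 Jchain UMIs, which were 3 of the 4 highest values beside 1 Ighm cell with 1030. The 5 cells led by an IgG gene held 10 to 178. The 15 cells led by Ighm ran from 1 to 1030, with a median of 196. In CPM without immunoglobulin UMIs, the lowest value among the Igha cells was 53787 CPM and the highest among IgG cells 14416 CPM, so these groups did not overlap, while the Ighm cells, from 67.1 to 122075 CPM, overlapped both. This grouping by isotype was made after the values were seen, and the cells come from 3 libraries. One combination cell led by Ighm had 1 Jchain UMI beside 104 of Mzb1, at 17579 UMIs in all. The macrophage-class cell, led by Ighg1, held 36 Jchain, 2 Mzb1 and 7 Xbp1 UMIs beside 67 UMIs of the macrophage gene Lyz2, at a doublet score of 0.0547.

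Mzb1, an endoplasmic reticulum chaperone that aids immunoglobulin assembly in B cells and plasma cells, was the other member past 2-fold under the combination. It had 508, 146, 1041 and 2664 UMIs in the 4 libraries, or 9.42, 4.91, 20.7 and 69.5 CPM. Its log2 ratio was 2.03 under the combination (1.92 to 2.14), 0.66 under the LTbR agonist and -0.38 under the STING agonist. Unlike Jchain it had several homes. Immunoglobulin-rich cells held 40.8% of its UMIs, B-like cells 40.1% and plasmacytoid dendritic-like cells 13.8%. In the combination library the B-like cells alone gave 1270 UMIs, against 104 in the Untreated library, from 518 and 55 cells. The B-like level was 333.8 CPM in the Untreated library, 323 under the LTbR agonist and 385.9 under the combination, so the level within the class moved far less than the number of its cells. The 15 B-like cells of the STING agonist library held 41 UMIs, or 517 CPM. Plasmacytoid dendritic-like cells held 220.3, 269.7, 289.6 and 264 CPM. Without immunoglobulin-rich cells, Mzb1 still stood 1.57 higher under the combination (log2, 1.46 to 1.69).

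**Figure D2:**
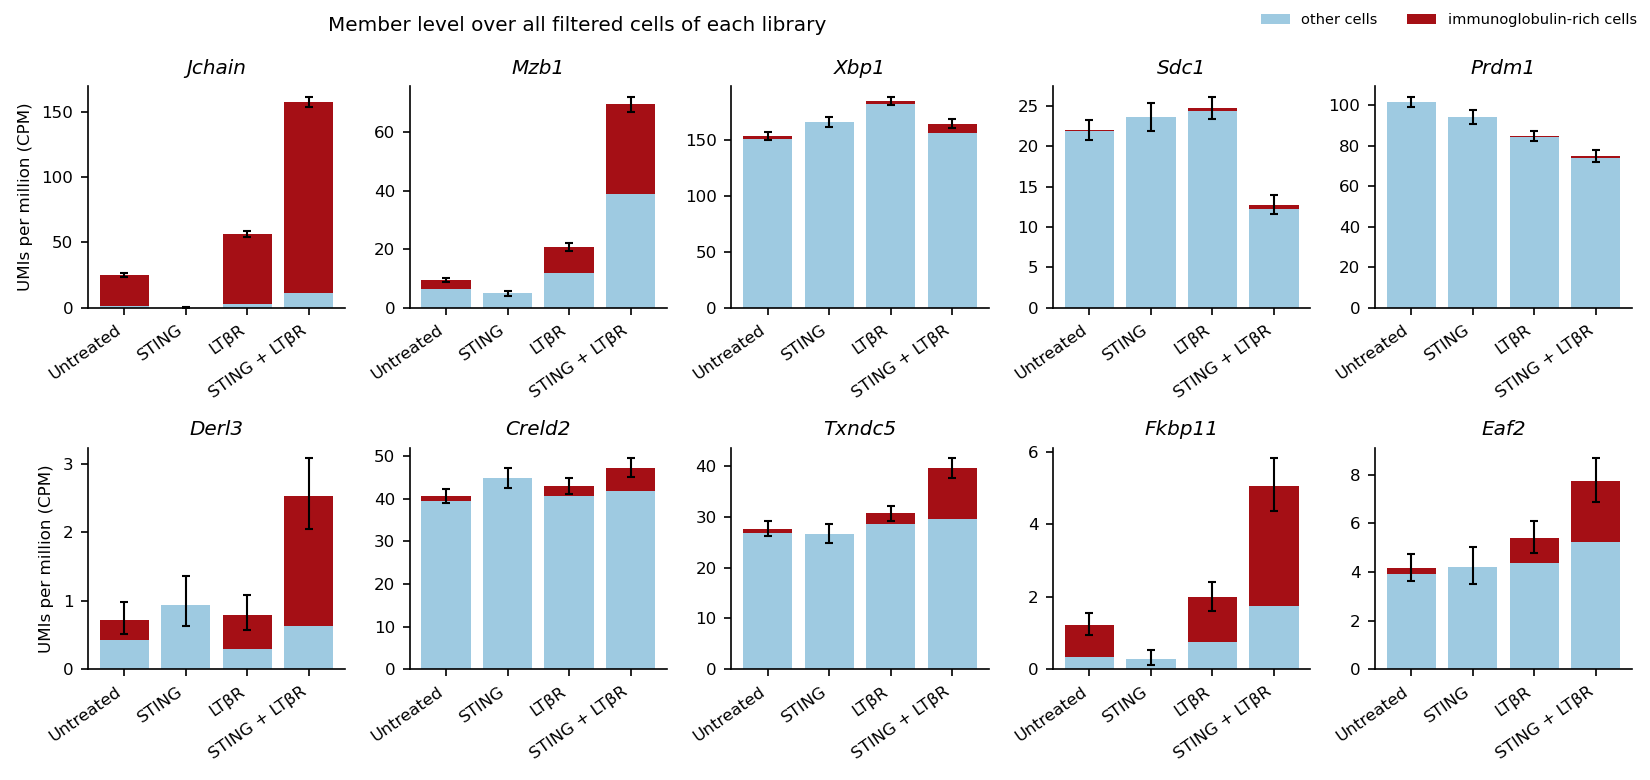
Level of each member in CPM over all filtered cells of the 4 libraries, 1 panel per member with its own axis from 0. Red is the part from immunoglobulin-rich cells, blue the part from other cells, and the line the exact Poisson 95% interval; red fills most of the Jchain bars, and Sdc1 and Prdm1 are lowest under the combination.

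A member was counted as higher or lower where the log2 ratio of CPM + 10 reached 2-fold. Under the combination 2 of 10 members (Jchain and Mzb1) were at least 2-fold higher, beside 0.51% of the 13132 genes with at least 50 UMIs in 1 library, and 0 of 10 were at least 2-fold lower, beside 0.274%. Under the LTbR agonist 0 members passed in either direction, beside 0.251% of genes higher and 0.107% lower. Under the STING agonist 0 were higher, beside 0.0838%, and 1 (Jchain) was lower, beside 0.0914%. That count was 0 without the top cell of each library, as a mean of CPM per cell and with 50 CPM added. The median log2 ratio of the members was 0.27, 0.12 and -0.02 for the combination, LTbR agonist and STING agonist, and that of all genes 0.03, 0.01 and 0.01. Summed over the 10 members, the level was 385.4, 365, 452.9 and 581.1 CPM in the order of libraries. With the 23 immunoglobulin-rich cells left out it was 353.5, 365, 380.7 and 373.7 CPM.

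In single plasma-type cells the members came together. The immunoglobulin-rich cells held a median of 9 of 10 members, none held fewer than 5, and 10 of the 23 held all 10. Of 757 B-like cells 25 held 5 or more, or 3.3%, and none held all 10. Of 242 plasmacytoid dendritic-like cells 15 held 5 or more, of 9580 macrophage- or monocyte-like cells outside the immunoglobulin-rich set 108 did, and of 7413 T-like cells 10 did. Depth differed, with medians of 20315 UMIs in immunoglobulin-rich and 4633 in B-like cells. With each cell drawn down to 1000 UMIs, 11 of the 23 still held 5 or more, and 0 of 750 B-like, 0 of 242 plasmacytoid dendritic-like and 0 of 7164 T-like cells did.

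Immunoglobulin-rich cells were then set against the B-like cells of the same library, with immunoglobulin UMIs left out of the totals. In the combination library (13 and 518 cells) 9 members had at least 50 UMIs in either set and 9 were at least 2-fold higher, beside 7.42% of 6873 genes. In the LTbR agonist library (7 and 169 cells) 7 members had enough UMIs and 7 were higher, beside 8.07% of 3258 genes. Derl3 and Fkbp11 in the first library, and Jchain, Creld2, Fkbp11 and Eaf2 in the second, reached 50 UMIs through the immunoglobulin-rich cells alone. Their direction was therefore set by the filter, and these counts are a description from which nothing is read. Over all 10 members, with or without 50 UMIs, the median log2 difference was 4.78 and 4.45 in those libraries. Over all genes with at least 50 UMIs it was -0.39 and -0.42. Members and genes were filtered differently here, so these medians are a description from which nothing is read. None of the members with enough UMIs was at least 2-fold lower, beside 26.9% and 27.2% of genes. Members that reached 50 UMIs through the immunoglobulin-rich cells alone could hardly be lower, so nothing is read from this count either. In both libraries Jchain differed by the most, 9.51 (9.27 to 9.75) and 10.92 (10.35 to 11.38), and Prdm1 by the least, 2.44 (1.78 to 3.08) and 3.05 (2.06 to 3.99). Sdc1 stayed under 50 UMIs in both libraries, with 23 and 16 UMIs in immunoglobulin-rich cells, and Prdm1 and Derl3 did so under the LTbR agonist.

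**Figure D3:**
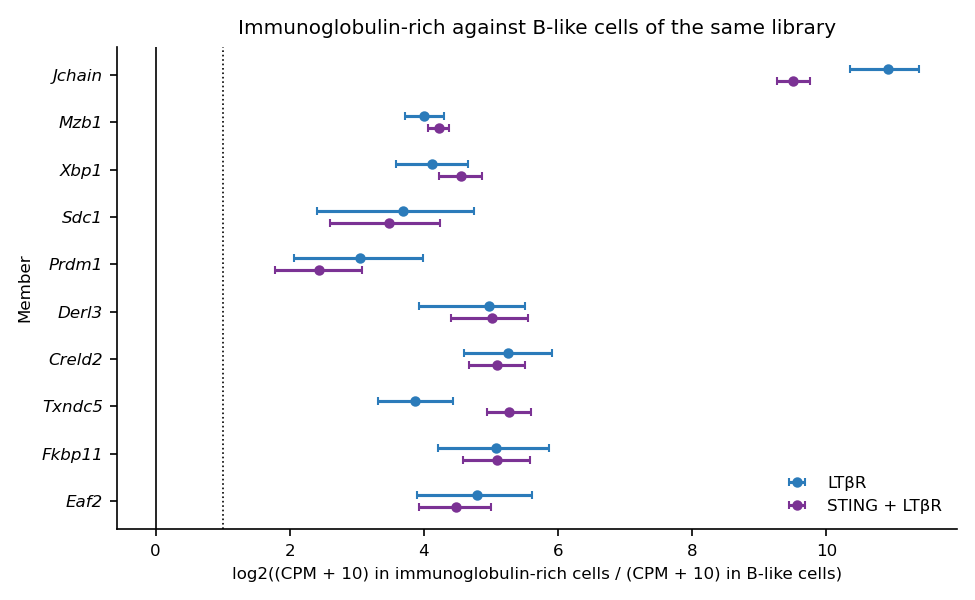
Log2 ratio of CPM + 10 between immunoglobulin-rich and B-like cells, with immunoglobulin UMIs left out of the totals, for the LTbR agonist (blue) and combination (purple) libraries; bars join opposite exact Poisson bounds and the dotted line marks 2-fold. All 10 members lie to the right of it, Jchain farthest; Derl3 had 0 UMIs in B-like cells of the LTbR agonist library, so that point depends on the added 10 CPM.

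Creld2, a chaperone-like protein induced by endoplasmic reticulum stress, stood at 1354 CPM in the immunoglobulin-rich cells of the combination library and 30.1 CPM in its B-like cells, a log2 difference of 5.09. For Txndc5, a protein disulfide isomerase, the levels were 2411 and 52.8 CPM, and the difference was 5.27 (4.94 to 5.60). Under the LTbR agonist the Txndc5 difference was 3.87 (3.31 to 4.43). Single immunoglobulin-rich cells held 0 to 85 Txndc5 UMIs under the combination and 0 to 38 under the LTbR agonist. The intervals do not cover this spread, so the libraries are not ranked. For Fkbp11, a peptidyl-prolyl isomerase of the secretory pathway, the levels in the combination library were 803.7 and 13.8 CPM, a difference of 5.09. Derl3, a channel component of endoplasmic reticulum-associated degradation, had 73 UMIs in 13 immunoglobulin-rich cells and 15 in 518 B-like cells, a difference of 5.01. Eaf2, a partner of the ELL elongation factors, differed by 4.47, and Xbp1 by 4.55.

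A further 30 genes of the secretory pathway and the unfolded protein response were set against B-like cells in the same way. In the immunoglobulin-rich cells of the combination library 28 of 30 were at least 2-fold higher, beside 7.42% of all genes. In those of the LTbR agonist library 22 of 24 were higher, beside 8.07%. In both libraries 0 were lower, beside 26.9% and 27.2%. In the LTbR agonist library 6 of the 30 were under 50 UMIs in both sets and 2 of the 24 reached it through the immunoglobulin-rich cells alone, so that count is a description. The highest was Sdf2l1 (4.23 and 4.66), a partner of the folding chaperone BiP, and Hsp90b1, which encodes GRP94, differed by 4.07 and 4.29. The lowest in the combination library was Ddit3, the stress-induced factor CHOP, with 3 UMIs in the 13 cells and a difference of -0.20 (-1.49 to 1.21). Of the regulators of the plasma cell stage, 6 of 9 were higher and 2 lower in the combination library, with Tent5c highest (3.26) and the chemokine receptor Cxcr4 lowest (-2.16). In the LTbR agonist library 4 of 7 were higher and 1 lower. Of these regulators, 4 of 9 in the combination and 3 of 7 in the LTbR agonist library reached 50 UMIs through the B-like cells alone. All the lower ones were among these, so the filter favored that direction and their count is a description. All 10 genes of B cell identity were at least 2-fold lower in both libraries, beside 26.9% (combination) and 27.2% (LTbR agonist) of genes. In both libraries all 10 reached 50 UMIs through the B-like cells alone. The filter therefore favored this direction, and the count is a description from which nothing is read. Several of them, such as Ms4a1 and Pax5, were also markers by which the B-like class was named. Pax5 had 3 UMIs against 1419 under the combination, a difference of -3.94 (-5.07 to -2.69). Over all cells of a library, by contrast, 0 of the 30 secretory genes passed 2-fold under any treatment. Under the combination 0.51% of all genes were at least 2-fold higher and 0.274% lower. Of the B cell identity genes 6 of 10 were at least 2-fold higher there, Ms4a1 the most (2.21). The B class held 59 cells in the Untreated and 540 in the combination library. Of the regulators, 1 of 9 was at least 2-fold higher under the combination, Pou2af1, a B cell coactivator (1.57). Of 8 immunoglobulin constant-region genes 4 were at least 2-fold higher and 1 lower under the combination, with Ighm highest (3.59) and Ighg2b lowest (-1.36). Under the LTbR agonist 2 were higher and 1 lower, beside 0.251% and 0.107% of all genes. Under the STING agonist 3 were lower, beside 0.0914%. Single cells set several of these values: 1 cell held 1315 of the 1322 Ighg2b UMIs of the Untreated library, and for Igha 1 cell held 1717 of 1779 UMIs there and 1 cell 3068 of 3144 under the combination.

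**Figure D4:**
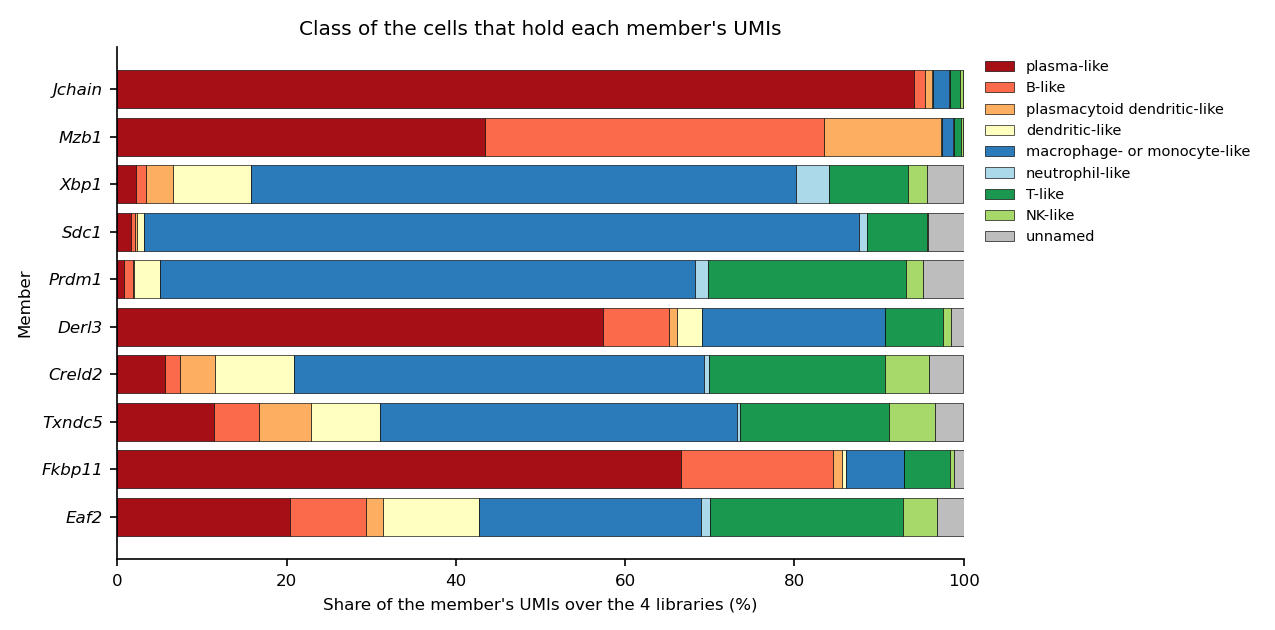
Share (%) of each member's UMIs over the 4 libraries by class of the cells that hold them. Plasma-like cells hold 94.2% of Jchain, 66.6% of Fkbp11 and 57.4% of Derl3, and macrophage- or monocyte-like cells hold 84.4% of Sdc1 and 63.3% of Prdm1.

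The members split by where their UMIs lay. Fkbp11 and Derl3 were, like Jchain, mostly in immunoglobulin-rich cells, with 64.4% and 55.9% of their UMIs there. Both were rare, with 66, 8, 100 and 194 UMIs of Fkbp11 and 39, 28, 40 and 97 of Derl3 in the 4 libraries. Fkbp11 stood 0.22 times as high under the STING agonist as in the Untreated library (0.0911 to 0.459), on 8 and 66 UMIs. Of the 66, 48 lay in immunoglobulin-rich cells, and outside these cells the levels were 0.269 and 0.334 CPM, on 8 and 18 UMIs. Under the STING agonist 2 cells held more than 50% of the Derl3 UMIs, the top one in the macrophage- or monocyte-like class with 10. Over the 4 libraries, 50% of the UMIs lay in 9 cells for Fkbp11, 12 for Derl3 and 29 for Mzb1, in 217 for Eaf2 and 288 for Sdc1, and in 1087 for Txndc5, 1175 for Creld2, 1726 for Prdm1 and 2522 for Xbp1. Eaf2 had 17.7% and Txndc5 9.99% of its UMIs in immunoglobulin-rich cells, Creld2 5.31%, Xbp1 2.01%, Sdc1 1.16% and Prdm1 0.461%.

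Xbp1, the transcription factor that enlarges the secretory apparatus, was broadly expressed. Its level over all cells was 153.1, 165.7, 184.6 and 164.1 CPM, and it took 824, 440, 786 and 492 cells to reach 50% of its UMIs. Plasma-like cells had 1687, 951 and 919 CPM in the 3 libraries that contained them. Plasmacytoid dendritic-like cells came next, at 302.8 to 510.9 CPM, and overlapped neutrophil-like cells, at 258.7 to 423.6 CPM. Macrophage- or monocyte-like cells held 188.9, 208.8, 243.5 and 233.8 CPM, with the Untreated library lowest. Summed over that class the log2 ratio was 0.35 under the LTbR agonist (0.28 to 0.42), and all 9 of its clusters were above 0 there. It was 0.29 under the combination (0.21 to 0.38), above 0 in 7 of 9 clusters, and 0.14 under the STING agonist (0.054 to 0.22), above 0 in 6 of 9. B-like cells, at 57.8 to 79.3 CPM in the 3 libraries with at least 20 of them, overlapped T-like and NK-like cells.

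Prdm1 and Sdc1 UMIs lay mainly in myeloid cells. Macrophage- or monocyte-like cells, 9581 of the 23011 cells, held 63.3% of Prdm1 and 84.4% of Sdc1 UMIs. T-like cells, 7413 of them, held 23.3% and 7.08%. These shares also reflect how many cells and UMIs a class holds. Prdm1 stood at 129.2, 118, 103.7 and 98.9 CPM in macrophage- or monocyte-like cells and at 104.8, 87, 84.6 and 71.8 CPM in T-like cells. In both classes the Untreated library was highest and the combination lowest. Over all cells its level was 101.5, 94, 84.6 and 74.8 CPM, a log2 ratio of -0.39 under the combination (-0.48 to -0.31). Averaged within clusters the combination ratio was -0.27 in the macrophage- or monocyte-like class, below 0 in 7 of 9 clusters, and -0.42 in T-like cells, below 0 in 7 of 8. Among T-like clusters the one led by Foxp3, the regulatory T cell factor, had the highest level, 174.7 CPM. In the immunoglobulin-rich cells Prdm1 had 0 to 10 UMIs each, and in plasma-like cells its level of 64.9 to 345.8 CPM overlapped the macrophage- or monocyte-like range.

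Sdc1, the heparan sulfate proteoglycan CD138 by which plasma cells are often sorted, followed its own pattern. Its level over all cells was 22, 23.6, 24.7 and 12.8 CPM, a log2 ratio of -0.49 under the combination (-0.62 to -0.36). In macrophage- or monocyte-like cells it was 35.9, 40.7, 41.8 and 20.6 CPM, a ratio of -0.58 (-0.76 to -0.41) under the combination. Averaged within 9 clusters the ratio was -0.23, with 5 below and 4 above 0 and a range of -1.61 to 1.85, so the direction was not shared among clusters. The clusters with the highest Sdc1 were led by Hspa1b, Inhba and Ccl8 (98.5, 84.7 and 78.8 CPM), all named macrophage- or monocyte-like. A T-like cluster led by Il17a had 73.1 CPM. The cluster led by Ccl8 was shallow, with a median of 1255 UMIs, and 3.99% of its cells had an Sdc1 UMI. That share was 30.7% and 31% in those led by Hspa1b and Inhba. The naming score of the Ccl8 cluster was 0.747 for macrophage or monocyte and 0.693 for tumor epithelium. Markers of the tumor epithelium summed to 7.22, 6.69, 8.43 and 8.58 CPM in the 4 libraries, and their part in Sdc1 was not tested. No B-like cell of the Untreated or STING agonist library had an Sdc1 UMI, and 16 of 34 plasma-like cells had one.

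**Figure D5:**
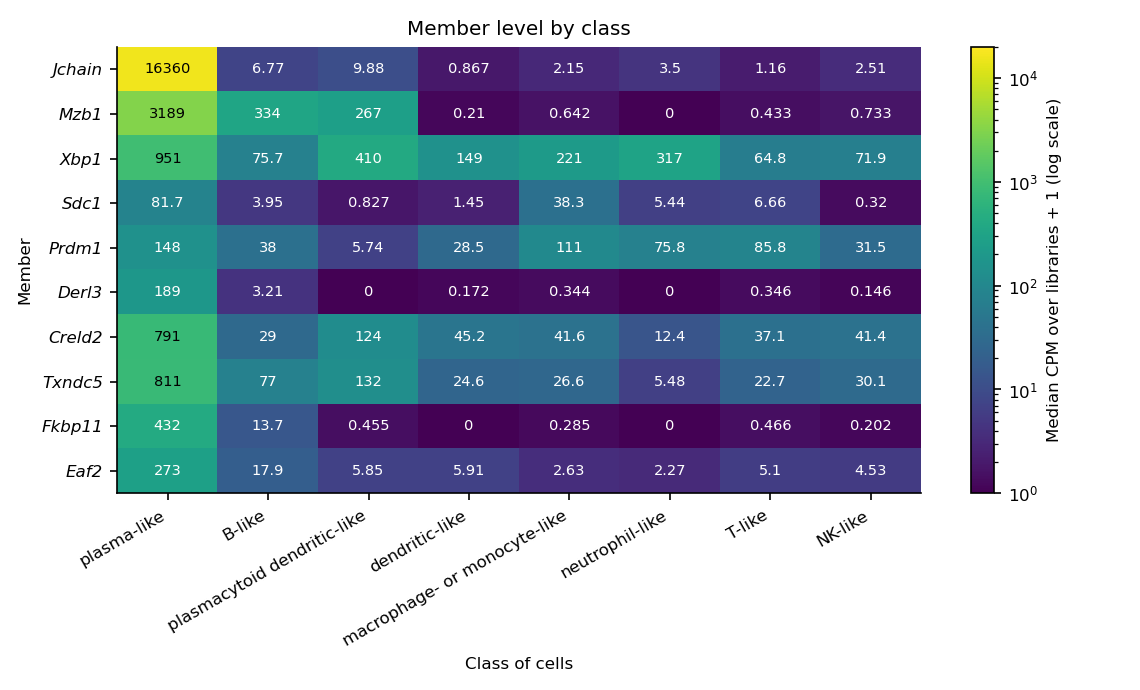
Median CPM of each member (rows) over libraries for 8 classes (columns), on a log color scale with the value printed; libraries count with at least 20 cells of the class, except for plasma-like cells, where the 3 libraries hold 4, 8 and 22. Plasma-like cells have the highest median of every member, though the ranges of Sdc1 and Prdm1 overlap with macrophage- or monocyte-like cells; beside plasma-like cells, Mzb1 is high in B-like (333.8) and plasmacytoid dendritic-like (266.9) cells.

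Plasmacytoid dendritic-like cells shared part of the program. These are antiviral interferon producers with a secretory apparatus of their own. Their median levels were second to plasma-like cells for Xbp1 (410.4 CPM), Creld2 (123.5 CPM) and Txndc5 (132.5 CPM), and just below B-like cells for Mzb1 (266.9 CPM). For Creld2 and Txndc5 their lowest library lay above the highest library of the next class, among libraries with at least 20 cells of a class. The 15 B-like cells of the STING agonist library, left out by that limit, had 100.9 CPM of Txndc5 on 8 UMIs. The lowest plasmacytoid dendritic-like level of Txndc5 was 91.3 CPM. Fkbp11, Derl3 and Sdc1 were nearly absent there, with 4, 2 and 8 UMIs in 242 cells. Of 65 Jchain UMIs in the Untreated cells of this class, 1 cell held 43. Txndc5 in B-like cells had 77, 80.3 and 52.3 CPM in the Untreated, LTbR agonist and combination libraries, and Creld2, at 22.5, 29 and 29.8 CPM, was lower there than in T-like cells (36.2 to 39.5 CPM).

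In T-like, B-like and macrophage- or monocyte-like cells the Jchain level was highest in the combination library, as was the library total. T-like cells, which should lack the gene, had 0.475, 0, 1.85 and 8.09 CPM of Jchain, and 0.21%, 0%, 0.954% and 4.54% of them had a UMI, at median depths of 4262 to 5062 UMIs. B-like cells had a Jchain UMI in 0%, 0%, 2.96% and 6.76% of cells, at 4403 to 4706 UMIs. Drawn to 1000 UMIs, 1.17% of B-like and 0.857% of T-like cells of the combination library had one. The B-like level of 38.3 CPM there fell to 21.7 CPM without 1 cell with 55 of the 126 UMIs, beside 8.09 CPM in T-like cells. The source of the Jchain UMIs in these classes was not tested. By contrast Mzb1 was found in 60.9% of B-like and 67.4% of plasmacytoid dendritic-like cells, against 0.486% of T-like cells, at median depths of 4633, 9419 and 4655 UMIs. Drawn to 1000 UMIs these shares were 22.8%, 18.6% and 0.112%.

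Within B- and plasma-like cells together, the treated libraries had a lower summed member level than the Untreated library, 3700 and 2868 against 4941 CPM. The Untreated class held 3 immunoglobulin-rich cells among 59, and the combination 13 among 540. Jchain was 1583 CPM under the combination and 3245 CPM in the Untreated class (log2 -1.03, -1.15 to -0.91). Without immunoglobulin-rich cells the sign turned, to 2.93 for Jchain, 0.52 for Xbp1 and 0.38 for the sum of members. All 1261 Jchain UMIs of the Untreated class lay in its immunoglobulin-rich cells, so 2.93 rests on the added 10 CPM. Of the Jchain UMIs left under the combination, 1 B-like cell held 55 and 1 plasma-like cell, at 9.997% immunoglobulin, held 87. Mzb1 stood at 683.9 and 676.7 CPM, a difference of 0.02 (-0.21 to 0.25). Fkbp11 was at -1.38 with and -0.37 without immunoglobulin-rich cells. With classes drawn instead by a marker score per cell, which put 182 Untreated cells in the class in place of 59, the ratio under the combination was 0.94 for Jchain, 0.33 for Fkbp11 and 1.00 for the sum, with the immunoglobulin-rich cells kept. Xbp1 stayed below 0, at -0.18. The direction for Jchain, Fkbp11 and the sum therefore depended on how the class was drawn.

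Over the 28 sums of a class in a library with at least 20 cells, the gene whose log2 level ran most like that of the summed members was Atf6 (Pearson r = 0.89), the stress sensor, and Rhobtb1 (0.88), Gm5535 (0.84) and Plpp5 (0.83) were also among the 5 highest of 13026 genes. Only the combination library had enough plasma-like cells to give such a point, and the points share libraries. Rhobtb1 stood at 140.4 CPM in those cells and at most 13.2 CPM elsewhere.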

How the data were processed

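Single-cell RNA counts of CD45+ tumor cells from 4 libraries, 1 per group, were analysed. Per the labels and the study's methods, the authors made the deposited UMI count matrix with Cell Ranger 7.1.0 on mm10; all libraries are in 1 matrix, and the barcode suffix named in the labels gives the library. Intronic reads are counted by default in that version. Counts were used as deposited, 32285 genes by 24839 barcodes, with the study's quality limits.

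Cells were log-normalized and clustered with scanpy 1.11.5 and leidenalg 0.10.2 (2000 variable genes, 30 principal components, 20 neighbours, resolution 1), which gave 27 clusters. Clusters were named from marker lists that hold no member, by a scoring rule set after the clusters were seen, and 1 cluster of 572 cells was left unnamed. Scrublet scores were computed and doublets kept; 678 cells scored 0.2 or more. The members and gene lists were chosen with earlier results of these data known. All members were described; beside them the secretory, regulator, B cell identity and constant-region lists and the 5 genes most like the summed members were named, of which 1 is not reported here.

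Levels are UMIs summed over cells in CPM. The log2 ratio used an added 10 CPM, with an interval from opposite exact Poisson bounds, and genes needed 50 UMIs in 1 library or cell set. Intervals and zero-count limits (3 counts) cover counting error only. Shares across depths used cells drawn to 1000 UMIs, which left out 179, 92, 274 and 176 shallower cells. Calculations used numpy 2.4.6, scipy 1.17.1 and pandas 2.3.3 and were tested on simulated data. Promoter windows came from RefSeq, gene positions from GENCODE vM21. Protein features were not analysed here.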

Additional observations from a re-analysis of the deposited data

Results flagged for a closer look

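Barcodes outside the quality limits entered no comparison, and some members had a higher level there than in the same barcodes of the Untreated library, with exact Poisson intervals that did not overlap. In the combination library Jchain stood at 103.4 CPM against 30.8 CPM, Mzb1 at 66.5 against 13.4 CPM, Creld2 at 69.1 against 48.1 CPM and Fkbp11 at 6.63 against 1.17 CPM. Under the STING agonist Creld2 stood at 77.4 CPM, and under the LTbR agonist Xbp1 stood at 166.4 CPM against 139.4 CPM. Others were lower there, also with intervals that did not overlap: Jchain at 1.8 CPM (STING agonist) and 2.89 CPM (LTbR agonist), Mzb1 at 2.16 and 7.0 CPM, Prdm1 at 76.1 CPM (LTbR agonist) and 76.4 CPM (combination) against 94.2 CPM, and Sdc1 at 23.6 CPM (combination) against 49.0 CPM. Among these barcodes 2 were immunoglobulin-rich, and both had more than 5000 genes: 1 in the Untreated library with 187 Jchain UMIs of 28254 UMIs, and 1 in the combination library with 426 of 49579. These 2 barcodes held 187 of 211 and 426 of 452 Jchain UMIs, and the part of other deep or damaged barcodes in the values was not tested.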

How the results depend on the processing

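Of 647 values recomputed under alternative settings, 484 stayed within their counting interval or count range, 159 moved outside it, and 4 that were past 2-fold turned to the opposite direction; values under 2-fold that crossed 0 are not among these 4. The summed members' log2 ratio under the combination (0.58) was 0.54 with 50 CPM added, 0.52 with median-of-ratios size factors, 0.24 as a mean of CPM per cell, 0.41 without the top 3 cells of each library and 0.078 without immunoglobulin-rich cells. Under the LTbR agonist (0.23) it was 0.15 as a mean per cell, 0.14 without the top 3 cells and 0.10 without immunoglobulin-rich cells. Under the STING agonist (-0.08) it was 0.013 as a mean per cell, 0.0057 without the top cell, 0.034 without the top 3 cells and 0.045 without immunoglobulin-rich cells. The 1 member lower under the STING agonist became 0 with 50 CPM added, as a mean per cell, and without the top cell, the top 3 cells or immunoglobulin-rich cells. With 1 CPM added, 2 members were higher under the LTbR agonist and 4 under the combination, and without immunoglobulin-rich cells 1 was higher under the combination. Within B- and plasma-like cells the sum was 0.77 (LTbR agonist) and 1.00 (combination) with classes from a marker score per cell, and 0.31 and 0.38 without immunoglobulin-rich cells. There Jchain under the combination turned to 0.94 by marker score and 2.93 without immunoglobulin-rich cells. The value of 2.93 is against 0 Untreated UMIs and rests on the added 10 CPM. Xbp1 turned to 0.52 without immunoglobulin-rich cells, and Fkbp11 to 0.33 by marker score. The marker score put 182 Untreated cells in the class in place of 59. At 20% immunoglobulin, 4 LTbR agonist cells remained of 7. The share of summed member UMIs in immunoglobulin-rich cells (17.6%) was 17.9% at 5%, 16.3% at 20% and 16.9% over all barcodes. Averages within clusters were added after seeing the data. No paired analysis was possible because each group has 1 library. For Jchain, Fkbp11 and Derl3, 4, 9 and 12 cells held 50% of the UMIs.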
